A study of Mus musculus with 20 samples.

Results

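AMPA receptors, the glutamate-gated channels that carry fast excitation from the inner hair cell to the spiral ganglion neuron (SGN), are assembled from pore subunits encoded by *Gria1* to *Gria4*. In brain, auxiliary subunits bind the pore and set how the receptor is exported, trafficked, anchored and gated. The examined set holds the transmembrane AMPA receptor regulatory proteins (TARPs), the cornichons, GSG1L and SHISA9. It was chosen as a named list of 10 genes, of 24411 genes in the tables, and all 10 were found by their symbols. Of the type I TARPs, *Cacng2* encodes stargazin (γ-2), which anchors receptors through PSD-95, and *Cacng3*, *Cacng4* and *Cacng8* encode γ-3, γ-4 and γ-8. *Cacng5* and *Cacng7* encode the type II TARPs γ-5 and γ-7. *Cnih2* and *Cnih3* encode cornichons, which act in receptor export and slow channel closure, *Gsg1l* encodes a claudin-like subunit that restrains the receptor, and *Shisa9* encodes CKAMP44, which alters recovery from desensitization.

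The study asked which transcripts change in the cochlea when the long isoform of the adhesion receptor BAI1 (gene *Adgrb1*) is lost. Bulk poly A RNA was sequenced from the apical coil of the cochlea, sensory epithelium and spiral ganglion together, in *Bai1*tm2b/+ littermate controls and *Bai1*tm2b/tm2b mice at postnatal day (P) 7 and P22, called controls and homozygotes below. The tm2b allele lacks exons 3 and 4 and carries lacZ, was made by Cre conversion in embryos, and is on a C57BL/6N background. Mice of both genotypes also carry the hypomorphic *Cdh23* ahl allele, both sexes were used, and no wild-type group was sequenced. Each library is a pool of mice, so that the spread between libraries is one between pools. There were 3 libraries per genotype at P22 and 7 per genotype at P7. At P22, and for replicates 5 to 7 at P7, the values are estimated counts, between 31108551 and 58807173 per library. For replicates 1 to 4 at P7 they are whole numbers that behave as rounded TPM, with unknown read depth. Since all cells of the coil were pooled, fewer cells of a type and less RNA per cell cannot be told apart in any value given here. *Adgrb1* was examined first as the check of the labels. At P22 it had 139, 137 and 151 CPM (counts scaled to library size with TMM factors) in controls and 93.2, 90.8 and 95.8 CPM in homozygotes, a log2 fold change of -0.61 (adjusted p = 0.000602, edgeR). At P7 the counts gave 35.5, 61.5 and 39.4 CPM against 29.6, 23.7 and 34.3 CPM without overlap (-0.64, adjusted p = 0.894, edgeR). The rounded TPM were 10, 12, 8 and 7 against 9, 9, 10 and 12, where the genotypes overlapped (0.02, adjusted p = 0.930, limma). Directions drawn from the rounded TPM therefore rest on the labels alone. The values sum all isoforms, short ones included. Hair cell, supporting cell and SGN markers were detected in every group, with no marker of these lists at 0.

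Among the 10 genes, pairs lie side by side in the genome (GRCm38, GENCODE annotation). *Cacng7* (chr7:3332955-3368221) and *Cacng8* (chr7:3390683-3415648) are neighbours on the plus strand, 22462 bases apart. *Cacng4* (chr11:107732357-107794557) and *Cacng5* (chr11:107874605-107915055) are neighbours on the minus strand, 80048 bases apart. *Cacng2* (chr15:77991748-78120028, minus strand) shares chromosome 15 with the targeted gene, at a distance of 3402283 bases. The tables give 1 value per gene, and since the sources do not state whether counting used strand, reads from the opposite-strand gene *A730060N03Rik*, which overlaps 5.86% of the exon bases of *Cacng2*, cannot be told apart from its own.

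Upstream sequence from RefSeq (GRCm38.p6) was available for 7 of the 10 genes. The windows below are shown for the type II TARP genes, both higher at P22, and for the cornichon genes, which differ widely in level at P7. *Cacng2* and *Cacng8*, also higher at P22, are not shown, and the 4 windows shown are those with a match to the marked motif. They run 5′ to 3′ up to the annotated start, and capitals mark the GC box GGGCGG on either strand, a motif chosen for display after the hits were seen.
Cacng7, chr7:3332575-3332824, plus strand: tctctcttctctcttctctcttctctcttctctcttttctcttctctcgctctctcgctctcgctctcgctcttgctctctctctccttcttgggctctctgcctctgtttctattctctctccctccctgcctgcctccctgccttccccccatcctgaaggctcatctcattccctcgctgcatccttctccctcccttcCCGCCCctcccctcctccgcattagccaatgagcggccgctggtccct
Cacng5, chr11:107915056-107915305, minus strand: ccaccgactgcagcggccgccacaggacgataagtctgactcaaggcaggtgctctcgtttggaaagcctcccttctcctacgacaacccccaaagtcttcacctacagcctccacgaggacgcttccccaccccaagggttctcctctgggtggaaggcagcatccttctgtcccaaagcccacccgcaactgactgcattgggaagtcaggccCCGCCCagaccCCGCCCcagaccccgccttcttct
Cnih2, chr19:5098522-5098771, minus strand: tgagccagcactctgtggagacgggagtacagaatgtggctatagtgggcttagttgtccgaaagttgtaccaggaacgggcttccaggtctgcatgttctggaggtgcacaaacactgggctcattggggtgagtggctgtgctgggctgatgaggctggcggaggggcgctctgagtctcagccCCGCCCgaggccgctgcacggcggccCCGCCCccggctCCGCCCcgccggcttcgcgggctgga
Cnih3, chr1:181352378-181352627, plus strand: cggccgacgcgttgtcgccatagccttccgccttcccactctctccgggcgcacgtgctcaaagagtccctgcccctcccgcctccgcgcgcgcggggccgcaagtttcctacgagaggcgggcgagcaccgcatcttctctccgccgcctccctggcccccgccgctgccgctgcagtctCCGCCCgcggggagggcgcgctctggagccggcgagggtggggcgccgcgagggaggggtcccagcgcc
The GC box matched 1 time in the *Cacng7* window, 2 times in that of *Cacng5*, 3 times in that of *Cnih2* and 1 time in that of *Cnih3*. The other 4 member windows, those of *Cacng2*, *Cacng3* and *Cacng8* and a second one of *Cacng5*, hold no match, so that 4 of 8 windows have one. It is present in 33.0% of 32536 promoter windows. These matches describe the letters only.

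Levels were first ordered within each group, with counts divided by mean transcript length and scaled to the same total in each library, which gives a level per length that can be set between genes. In the P7 controls in counts, *Cnih2* (27.0 ± 0.351, SD, n = 3) and *Cacng7* (22.7 ± 1.49) led, followed by *Cacng4* (15.2 ± 0.316). *Cacng5* (7.87 ± 2.90) and *Shisa9* (7.15 ± 0.668) overlapped between libraries, as did *Cacng2* (1.41 ± 0.528), *Cacng8* (1.33 ± 0.407) and *Cnih3* (1.19 ± 0.244), while *Gsg1l* (5.07 ± 0.974) came below *Shisa9* in every library on this length and *Cacng3* (0.213 ± 0.250) was lowest. The order in the middle of the range turned with the length used. With the longest coding transcript as length, *Gsg1l* (8.60) stood above *Shisa9* (5.13) in every P7 control and *Cacng2* (2.39) no longer overlapped *Cnih3* (1.10). The top of the order differed in the P7 controls in rounded TPM. There *Cnih2* (32.5 ± 2.08, SD, n = 4) lay below *Cacng7* (40.75 ± 5.19) and *Cacng4* (38 ± 2.16) in every library. At P22 the order was different. *Cacng7* stood first at 60.6 ± 3.84 per length in controls, more than the next gene, *Cnih2* (17.1 ± 2.01), in every library. *Cnih2* and *Cacng5* (13.1 ± 1.54) overlapped, *Cacng2* reached 10.1 ± 1.22, *Cacng8* (4.03 ± 0.501) and *Cacng4* (3.42 ± 0.809) overlapped, and *Shisa9*, *Gsg1l*, *Cnih3* and *Cacng3* were all at or under 1.40. Homozygotes at P22 likewise had *Cacng7* first (53.2 ± 0.388), then *Cnih2* (20.5 ± 1.27), *Cacng5* (12.04 ± 1.04) and *Cacng2* (6.55 ± 0.295).

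The make-up of the auxiliary pool was computed from the same levels. In controls the type II TARPs made up 34.2% ± 2.54 (SD, n = 3) of the summed level at P7 and 66.7% ± 0.511 at P22. The cornichons made up 31.7% ± 1.81 and 15.7% ± 1.29, and GSG1L with SHISA9 13.7% ± 0.581 and 1.64% ± 0.401. The share of type I TARPs was 20.4% ± 0.352 at P7 and 16.0% ± 0.788 at P22. Of the summed level of all 10 genes, *Cacng2* made up 1.56% ± 0.510 at P7 and 9.15% ± 0.375 at P22, and *Cacng4* 17.1% ± 1.19 and 3.07% ± 0.470. Homozygotes had 28.4% ± 2.28 type II TARPs at P7 and 63.9% ± 1.35 at P22, and 35.2% ± 2.44 and 20.7% ± 1.16 cornichons. For each unit of pore subunit mRNA, controls had 2.11 ± 0.266 units of auxiliary mRNA at P7 and 1.12 ± 0.0451 at P22, and homozygotes 1.92 ± 0.464 and 1.22 ± 0.0448. The P7 libraries in rounded TPM, a different normalization, had 38.7% ± 1.90 type II TARPs, 31.6% ± 1.85 type I TARPs and 24.8% ± 1.11 cornichons in controls (SD, n = 4). *Shisa9* with *Gsg1l* made up 4.94% ± 0.650 there. The units of auxiliary mRNA per unit of pore subunit mRNA in this set were 2.84 ± 0.225 in controls and 3.00 ± 0.271 in homozygotes. The order of the genotypes was thus opposite to that in the P7 counts. The difference in make-up between the sets of P7 libraries was not tested.

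**Figure D1:**
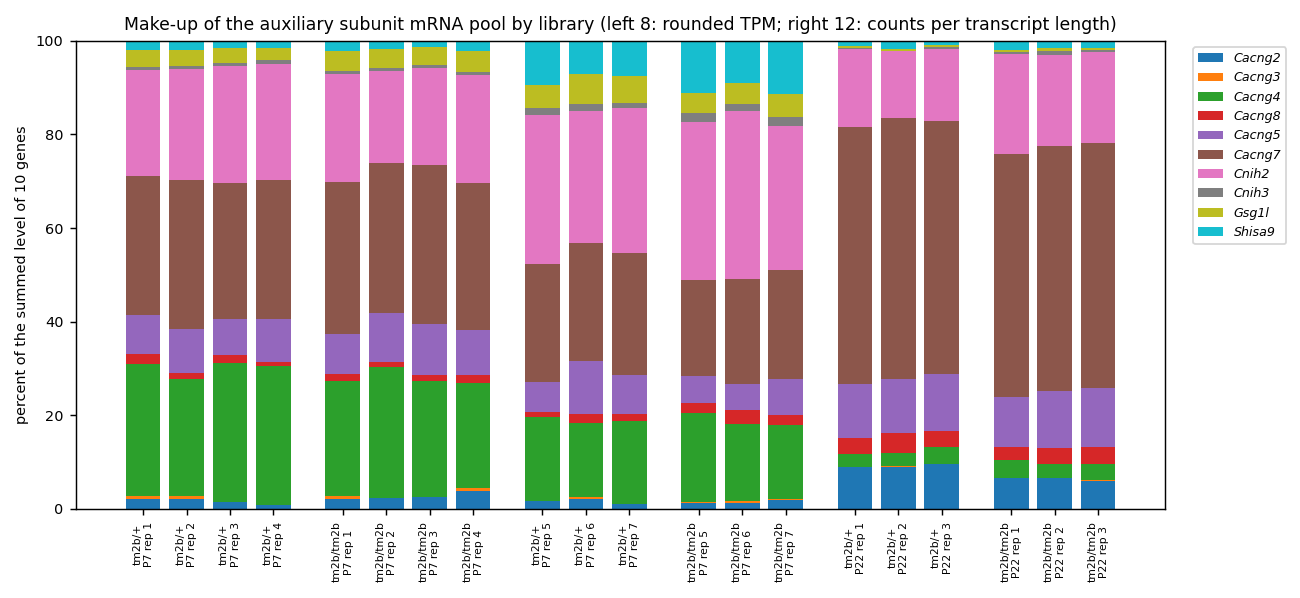
Percent of the summed level of the 10 genes taken by each gene, 1 bar per library (vertical axis, percent; horizontal axis, genotype, age and replicate). The type II gene *Cacng7* takes the widest band in the P22 bars, with a mean of 54.9% in controls, against 25.5% in the P7 controls in counts.

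The difference between P7 and P22 was tested in the 12 libraries in counts with edgeR's quasi-likelihood test, as log2 fold change of P22 over P7. Each age was deposited as a table of its own, so that age and table cannot be told apart. The paper describes the P22 pools as a batch apart from the P7 batches, so batch cannot be told apart from age either. A gene was called when its adjusted p was under 0.05, its log2 fold change over 0.5 either way and its standard error under 0.5. In edgeR fits the standard error was derived, as the absolute log2 fold change divided by the square root of the F statistic. In controls 4 of the 10 members rose and 4 fell. The background was 51.8% of all genes tested, 24.8% upward and 27% downward, and 72.8% by the adjusted p alone, which 9 of the 10 members passed (74.5% and the same 9 before adjustment). In homozygotes 4 rose and 4 fell again, with a background of 49.3% (24.2% upward and 25.1% downward), and 9 passed by the adjusted p alone, as did 71.8% of genes (73.9% before adjustment). Levels did not overlap between ages for 9 of 10 members in either genotype, where 78.3% of all genes did not in controls and 74% in homozygotes. The median of the 10 genes was -0.80 in controls and -0.72 in homozygotes, with -0.06 and -0.04 over all genes. The share of members called was thus above the background, over few genes.

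Of the type I TARPs, *Cacng2* differed most. Its level went from 4.11, 6.27 and 2.85 CPM in P7 controls up to 36.02, 36.4 and 44.1 CPM at P22, and from 2.79, 4.08 and 5.95 CPM up to 25.8, 24.6 and 23.2 CPM in homozygotes, with no overlap between ages. The log2 fold change was 3.12 (SE 0.274, adjusted p = 4.62e-07, edgeR) in controls and 2.51 (SE 0.273, adjusted p = 3.60e-06, edgeR) in homozygotes. *Cacng8* rose by a log2 fold change of 1.86 (adjusted p = 9.90e-05, edgeR) in controls and 0.81 (adjusted p = 0.0241, edgeR) in homozygotes. The latter call was lost without homozygous P22 replicate 3 (0.70, adjusted p = 0.0773, edgeR), P7 replicate 5 (0.57, adjusted p = 0.0768, edgeR) or P7 replicate 7 (0.82, adjusted p = 0.0512, edgeR). *Cacng4* went the other way, from 16.3, 17.2 and 17.3 CPM at P7 to 4.05, 4.02 and 5.93 CPM at P22 in controls, a log2 fold change of -1.86 (SE 0.151, adjusted p = 2.45e-07, edgeR). *Cacng3* had 2 to 27 counts per library at P7 and 1 to 4 at P22 and was not called.

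Both type II TARP genes rose. *Cacng7* had 17.7, 21.0 and 19.8 CPM at P7 and 61.2, 61.8 and 68.2 CPM at P22 in controls, a log2 fold change of 1.71 (SE 0.134, adjusted p = 1.82e-07, edgeR), with 1.63 in homozygotes. In homozygotes its levels were 13.1, 19.4 and 20.4 CPM and then 55.6, 53.2 and 54.9 CPM. *Cacng5* stood at 10.8, 23.5 and 15.4 CPM in P7 controls and at 31.5, 31.1 and 38.0 CPM at P22. It rose by a log2 fold change of 1.01 in controls and 1.27 in homozygotes. The neighbours *Cacng4* and *Cacng5* thus differed in direction, whereas the neighbours *Cacng7* and *Cacng8* were both higher.

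Both members outside the TARPs and cornichons fell. *Gsg1l* had 8.93, 13.8 and 11.2 CPM at P7 and 1.01, 1.10 and 1.11 CPM at P22 in controls, 10.5-fold lower at P22 (log2 fold change -3.39, SE 0.239, adjusted p = 7.04e-08, edgeR). *Shisa9* had 8.02, 7.33 and 6.90 CPM against 1.53, 2.29 and 1.53 CPM (log2 fold change -2.05, SE 0.197, adjusted p = 1.05e-06, edgeR). In homozygotes *Gsg1l* lay at 6.90, 10.3 and 11.3 CPM at P7 and 0.976, 1.27 and 1.42 CPM at P22, and *Shisa9* at 8.72, 9.41 and 12.1 CPM and 2.58, 2.02 and 1.95 CPM. Their log2 fold changes were -2.96 and -2.21. *Cnih3* was called lower in both genotypes (-1.69 and -1.11) from 7 to 74 counts per library, but lost its call without control P22 replicate 1 or 3 (SE 0.512 and 0.515), and in homozygotes without P22 replicate 1 or 3 or P7 replicate 7 (adjusted p = 0.0665, 0.0845 and 0.0699, edgeR). *Cnih2*, the most abundant cornichon, was at 17.1, 18.2 and 17.9 CPM at P7 and 14.2, 12.005 and 14.96 CPM at P22 in controls. It had log2 fold changes of -0.37 (adjusted p = 0.0205, edgeR) and -0.34 (adjusted p = 0.0304, edgeR), under the limit of 0.5.

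CPM in the comparison of ages and in all marker sums were scaled over the 12 libraries in counts together. CPM of single genes compared between genotypes were scaled within each age, so their values differ. Beside these differences with age, the summed CPM of 14 SGN markers was between 1782 and 3524 in controls at P7. It was between 21128 and 23380 at P22, and 13 of the 14 were called higher. Supporting cell markers summed to between 6700 and 8767 CPM at P7 and to between 957 and 1113 CPM at P22. The libraries were therefore also scaled to the summed SGN markers, which shifted the median of all genes by -3.29 in controls and -3.20 in homozygotes. On this scale *Cacng2* had log2 fold changes of -0.02 and -0.57, *Cacng7* -1.51 and -1.49, *Cacng5* -2.11 and -1.82, and *Cacng8* -1.25 and -2.30, so each of the 4 rises reversed in sign, on a scale where 64 of 16314 genes were called higher and 13737 lower in controls. Each of these values still lay above the shifted median of all genes. How much of each difference follows the share of neurons was not tested.

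**Figure D2:**
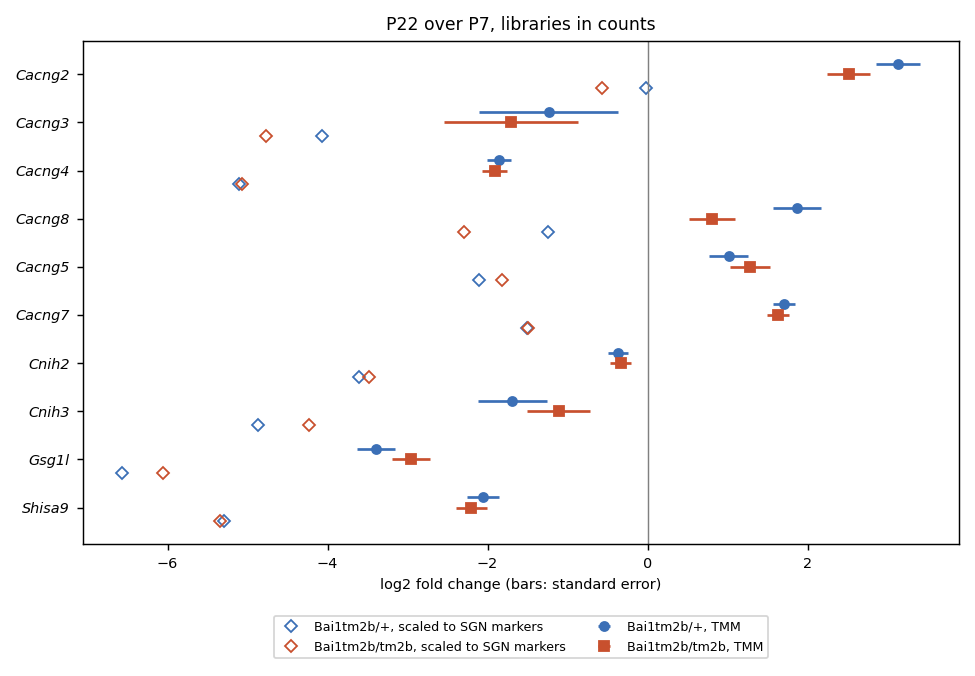
Log2 fold change of P22 over P7 (horizontal axis) for each gene, with standard errors, as filled symbols after TMM scaling and as open diamonds after scaling to SGN markers, in blue for controls (*Bai1*tm2b/+) and red for homozygotes (*Bai1*tm2b/tm2b). Filled symbols of *Cacng2*, *Cacng8*, *Cacng5* and *Cacng7* lie to the right of 0, and all open diamonds lie to the left.

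**Figure D3:**
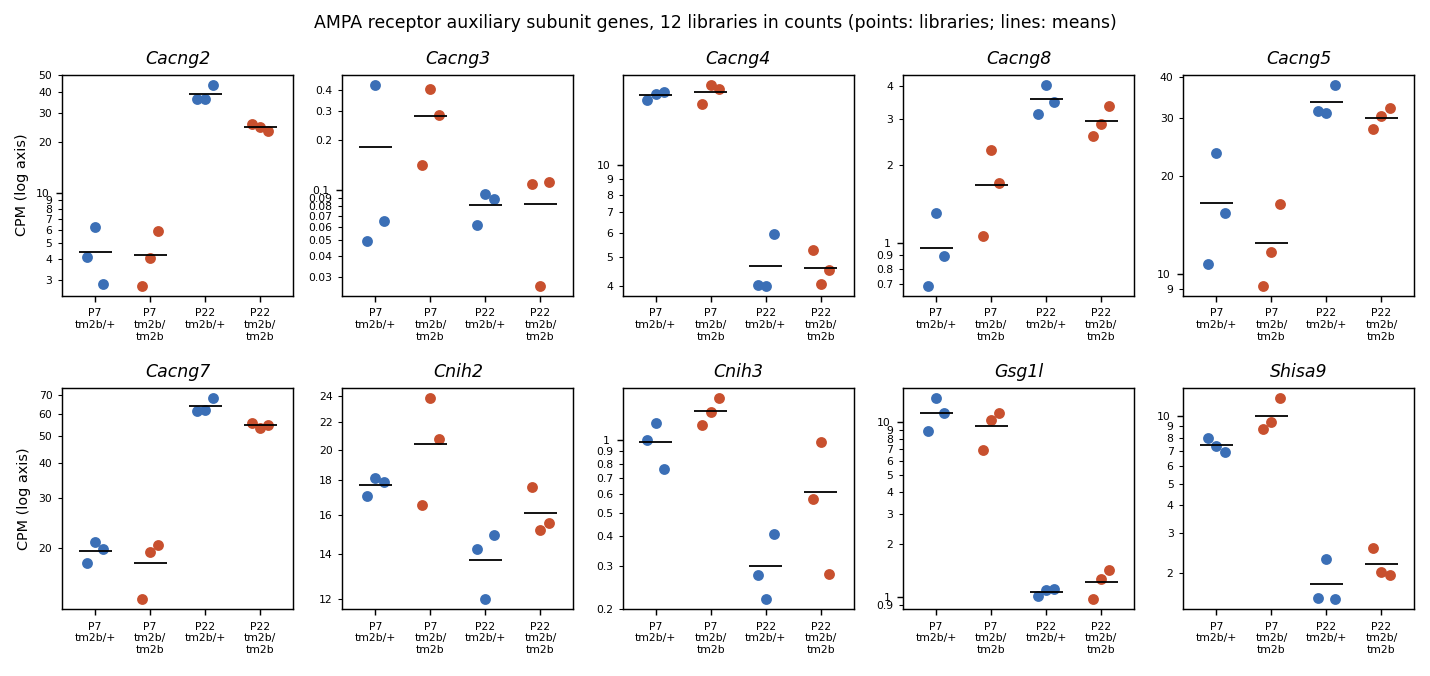
CPM of each gene (vertical log axis) in the 12 libraries in counts, by age and genotype, with points for libraries and lines for means. *Cacng2* lies between 2.79 and 6.27 CPM in the P7 libraries and between 23.2 and 44.1 CPM at P22, while *Gsg1l* lies above 6 CPM at P7 and under 2 CPM at P22.

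At P22, 1 of the 9 members tested was called between genotypes, *Cacng2*, which was lower in homozygotes. The paper also lists *Cacng2* among its lower genes at P22, from the same libraries. Of all genes tested, 3.15% were called, 1.74% upward and 1.41% downward. The count of 487 genes behind this share moved when 1 library was left out, to 108 higher and 162 lower without control replicate 1, 160 and 125 without control replicate 3, and 117 and 165 without homozygous replicate 2. By the adjusted p alone 12.3% passed, and 28.7% had an unadjusted p under 0.05, as did 2 members, *Cacng2* and *Cacng7*. The median log2 fold change of the 9 was -0.01, with 0.01 over all genes. Scaled within P22, the controls had 32.6, 32.8 and 39.9 CPM of *Cacng2* and the homozygotes 23.3, 22.3 and 21.1 CPM. Every homozygous library thus lay below every control. The fall was 1.58-fold (log2 fold change -0.66, SE 0.0916, adjusted p = 0.00303, edgeR). It was called in all 6 fits that left out 1 library, between -0.71 and -0.56, with an adjusted p (edgeR) of at most 0.0152. Its share of the auxiliary pool was 9.15% ± 0.375 (SD, n = 3) in controls and 6.42% ± 0.304 in homozygotes.

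SGN marker values were also lower in homozygotes at P22. Their summed CPM was 21128 to 23380 in controls and 15403 to 17373 in homozygotes, and none of the 14 was at 0. Of the 14, 2 (*Calb2* and *Nefh*) were called lower, as were 1.41% of all genes tested. The list's log2 fold changes ran from -0.54 to 0.36, with a median of -0.41. Relative to the summed SGN markers, in thousandths, *Cacng2* was at 1.75 ± 0.125 (SD, n = 3) in P22 controls and at 1.52 ± 0.0668 in homozygotes. These ratios did not overlap, with a lowest control of 1.64 and a highest homozygote of 1.59. On this scale *Cacng4*, *Cacng7*, *Cnih2*, *Cnih3*, *Gsg1l* and *Shisa9* did not overlap either, and each was higher in homozygotes. *Cnih2*, for example, was at 0.57 to 0.65 in controls and at 0.99 to 1.01 in homozygotes. The share of all genes without overlap on this scale was not computed. The sum includes *Calb2* and *Nefh*, and also *Slc17a6* and *Slc17a7*, which the paper lists among its lower genes at P22. The scale thus holds genes that differ with genotype. Scaled to the SGN markers, *Cacng2* was no longer called (log2 fold change -0.21, adjusted p = 0.0635, edgeR, with a median of 0.46 over all genes). The SGN markers and *Cacng2* were both measured in these 6 libraries, and the part of the markers in the fall was not tested. The paper reported no significant difference between adult genotypes in counted apical afferent fibres. That count was shown for mice months older than P22 and was not made on these pools. Markers of other cells differed too, with 3 of 10 hair cell, 3 of 8 supporting cell and 5 of 8 central glia markers called higher in homozygotes. Of the Schwann and satellite glia markers 2 of 8 were called higher, with a list median of -0.003. Over all genes tested, 1.74% were called higher.

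**Figure D4:**
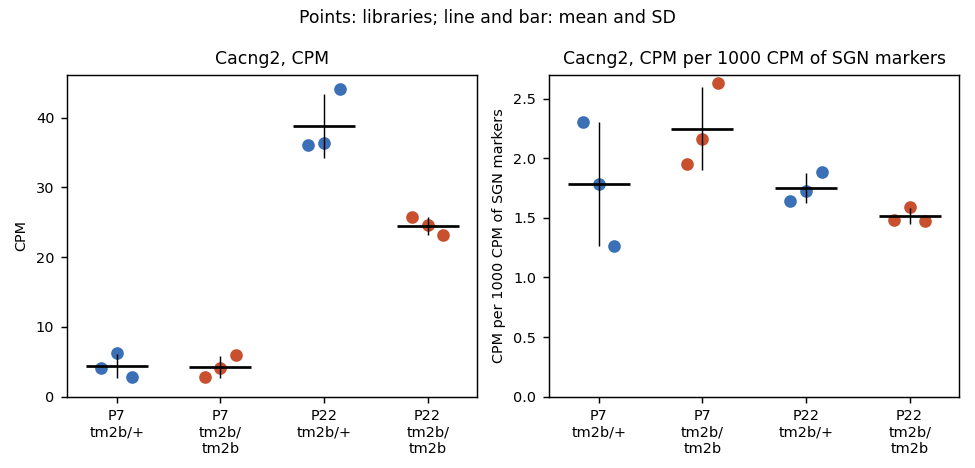
*Cacng2* in the 12 libraries in counts, as CPM (left, linear axis from 0) and relative to the summed SGN markers, in thousandths (right), with points for libraries and lines and bars for mean and SD. The gap between genotypes at P22 is wide on the left and narrow on the right. The P22 groups on the right are at 1.75 and 1.52 and do not overlap. Other members, not shown, did not overlap on this scale in the other direction.

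The other type I TARPs did not pass the test at P22, with log2 fold changes of -0.01 for *Cacng4* and -0.27 for *Cacng8*. The type II gene *Cacng7* was at 55.3, 55.6 and 61.6 CPM in controls against 50.3, 48.2 and 49.9 CPM. These did not overlap, but the log2 fold change of -0.22 (SE 0.0649, adjusted p = 0.0538, edgeR) missed both limits. *Cnih2* had 12.9, 10.8 and 13.5 CPM against 15.9, 13.7 and 14.2 CPM, again without overlap (0.24, adjusted p = 0.189, edgeR). In all, 3 of the 10 members did not overlap between genotypes, where 33.7% of all genes tested did not. *Cnih3* (1.01, SE 0.515, from 7 to 37 counts per library), *Shisa9* (0.30), *Gsg1l* (0.19) and *Cacng5* (-0.15) also missed the test. After scaling to SGN markers *Cnih2* (0.69, adjusted p = 0.000504, edgeR) and *Shisa9* (0.73, adjusted p = 0.0279, edgeR) were called higher, on a scale where 5674 of 15443 genes were and the median of all genes was 0.46. *Cacng3* did not pass the filter on low counts.

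The pore subunits were compared as the genes the members serve. At P22 none of 4 was called. *Gria2*, *Gria3* and *Gria4* had log2 fold changes of -0.30, -0.36 and -0.26 with adjusted p values (edgeR) of 0.0329, 0.0167 and 0.0352, under the limit on size, and *Gria1* had 0.62 (adjusted p = 0.0832, edgeR). None of 18 further partners and assembly factors and none of 19 scaffold and traffic genes tested was called.

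At P7 no member was called in either set. In the libraries in counts edgeR called 0 of 16026 genes (4.76% had an unadjusted p under 0.05, and DESeq2 called 44 higher and 4 lower), so 0% is the background there. Of the members only *Shisa9* had an unadjusted p under 0.05. *Shisa9* went from 8.87, 7.98 and 7.54 CPM in controls to 9.99, 10.4 and 13.3 CPM in homozygotes, without overlap, with a log2 fold change of 0.46 (SE 0.144, adjusted p = 0.894, edgeR). *Cacng8* had 0.762, 1.43 and 0.976 CPM against 1.22, 2.50 and 1.87 CPM, which overlapped (0.80, SE 0.358, adjusted p = 0.894, edgeR). *Cacng2* had 4.54, 6.83 and 3.12 CPM against 3.19, 4.49 and 6.53 CPM, a difference of -0.03 (SE 0.352), where a change of the size seen at P22 lies within 2 standard errors. Groups did not overlap for 2 members, *Shisa9* and *Cnih3*, against 10.4% of all genes. The pore subunit *Gria2* had 13.7, 19.0 and 13.8 CPM against 31.4, 19.8 and 24.5 CPM (0.70, adjusted p = 0.894, edgeR). Beside these values, the 10 brain neuron markers summed to 43.8 to 55.7 CPM in controls and to 68.9 to 89.9 CPM in homozygotes (0 of 9 tested were called, median 0.94, *Gabra6* at 0 in controls), and their part was not tested. The remaining members had log2 fold changes of 0.49 for *Cacng3* (SE 0.803), 0.06 for *Cacng4*, 0.22 for *Cnih2* and 0.45 for *Cnih3* (SE 0.257).

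In the libraries in rounded TPM, 5 members had a mean of at least 5 TPM and could be tested with limma, on log2 values after adding 1. None was called, where 0.826% of all genes were, 0.673% upward and 0.153% downward. By the adjusted p alone 1 member and 8.02% of genes passed, and 3 members and 34.6% of genes had an unadjusted p under 0.05. The values of *Gsg1l* were 5, 5, 4 and 3 TPM in controls and 6, 7, 6 and 8 TPM in homozygotes, which did not overlap, as for 14.8% of all genes. Its log2 fold change of 0.48 (SE 0.130, adjusted p = 0.04998, limma) passed on p and fell short of the limit on size. The adjusted p was 0.0502 when TMM factors came from all genes, a form of scaling tried after the data were seen, and *Gsg1l* was called without control replicate 1 (0.53) or homozygous replicate 1 (0.52). In the other 6 fits that left out 1 library it did not pass, with log2 fold changes down to 0.38 and adjusted p values (limma) from 0.0638 to 0.133. *Cacng7* had 43, 47, 37 and 36 TPM against 45, 55, 52 and 56 TPM (0.24, adjusted p = 0.0670, limma) and *Cacng5* 12, 14, 10 and 11 against 12, 18, 17 and 17 TPM (0.31, adjusted p = 0.103, limma). *Cacng2* had 3, 3, 2 and 1 TPM against 3, 4, 4 and 7 TPM, too low for the filter, and with a minimum of 1 TPM its log2 fold change was 0.68 (adjusted p = 0.111, limma). *Cacng4* (-0.04) and *Cnih2* (-0.02) lay near 0. *Gsg1l*, *Cacng5* and *Cacng7* had differences below 0 in the P7 libraries in counts (-0.23, -0.39 and -0.13) and above 0 here, and the median of the SGN markers was -0.36 there and 0.23 here.

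**Figure D5:**
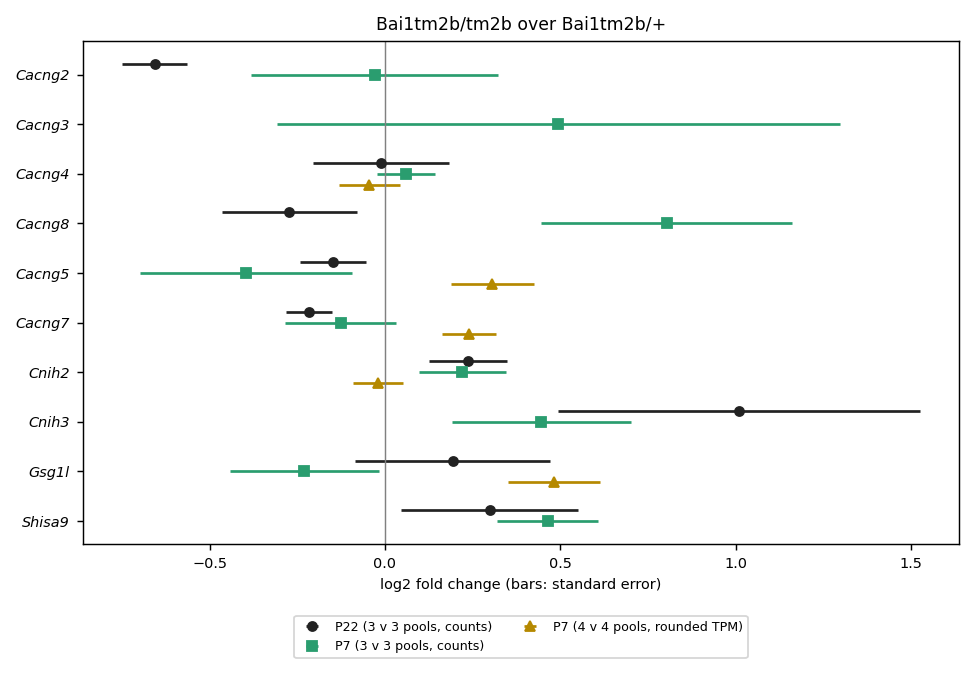
Log2 fold change of homozygotes over controls (horizontal axis) with standard errors, for P22 (circles), the P7 libraries in counts (squares) and the P7 libraries in rounded TPM (triangles). At P22 *Cacng2* lies at -0.66 and *Cacng7* at -0.22, and the P7 sets fall on opposite sides of 0 for *Cacng5*, *Cacng7* and *Gsg1l*.

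Whether the genotype difference itself differed between P22 and P7 was tested as an interaction in the 12 libraries in counts. No member was called, where 0.0306% of genes were, and 10.2% of genes and 1 member (*Cacng8*) had an unadjusted p under 0.05. The difference of log2 fold changes was -0.61 for *Cacng2* (SE 0.372, adjusted p = 0.601, edgeR), so its fall at P22 was not shown to differ from the difference at P7. The widest among the members was -1.06 for *Cacng8* (SE 0.412, adjusted p = 0.397, edgeR).

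Genes of the same receptor system were followed with age for comparison. *Gria2*, *Gria3* and *Gria4* were called higher at P22 in controls (1.24, 1.85 and 1.58) and *Gria1* lower (-0.81), while in homozygotes *Gria3* (1.53) and *Gria4* (1.16) were called. Of 18 further partners and assembly factors, 8 were called higher and 3 lower in controls, with the widest changes in *Prrt1* (2.54), *Abhd6* (1.97) and *Abhd12* (1.86). Of 20 scaffold and traffic genes, 6 were called higher and 9 lower, led by *Neto1* (-2.79), *Nsf* (2.75) and *Lrrtm4* (-2.62). The background in controls was 51.8% of all genes tested, 24.8% upward and 27% downward.

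The genes whose log2 CPM ran most like each member over the 12 libraries were found by Pearson's r, as a description, since the points share age, table and neuronal content. For *Cacng2* these were *Ndufaf4* (0.996), *Dscam* (0.996) and *Trappc13* (0.995), for *Cacng7* *Atp1b1*, *Zfyve9* and *Laptm4b* (0.999, 0.999 and 0.998), and for *Gsg1l* *Peg12*, *Negr1* and *Fzd1* (0.995 each). With the group means removed they were *Pfn2* (0.971), *Ndufaf4* (0.964) and *Gnal* (0.961) for *Cacng2*, and *Chst2* (0.989), *Sdf4* (0.981) and *Itfg1* (0.981) for *Cacng7*. Between members, *Cacng2* and *Cacng7* had r = 0.985 and *Cacng2* and *Cacng4* r = -0.943 over the 12 libraries. With the group means removed, r was 0.699 for *Cacng2* and *Cacng7* and 0.371 for *Cacng2* and *Cacng4*.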

How the data were processed

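Libraries of the cochlear apical coil were grouped by genotype and age from the labels. The reads were aligned to mm10 with STAR and quantified with Salmon in nf-core, according to the submitters' processing notes. For P22 and for P7 replicates 5 to 7 the authors deposited estimated counts (expected counts). For P7 replicates 1 to 4 the deposited whole numbers sum to nearly the same total and were treated as a score, TPM after rounding, where counts had been planned for. The annotation release is not given in the sources used here.

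Counts were rounded, filtered (filterByExpr), TMM-scaled and tested with edgeR 4.0.16 in R 4.3.3, with DESeq2 1.42.0 as alternative. Rounded TPM were TMM-scaled and tested by limma 3.58.1 with a trend, as log2(value + 1), where the mean reached 5. P values were adjusted by Benjamini-Hochberg over all genes. Alternatives changed scaling, filter, pseudocount, length and replicate block, or left out a library. Each fit was tested on simulated data first. Differences between libraries in counts exceeded sampling noise in every pair.

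Members and lists were chosen with earlier results of these data known. Named by rule were the members, *Adgrb1*, the pore subunits, at most 3 called genes of other lists, and the genes most like a member, shown here for 3 members. Replicate numbers did not pair the libraries, with correlations of deviations from -0.226 to 0.0806. The labels do not tie libraries to litters, so p values measure the spread between pools.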

Additional observations from a re-analysis of the deposited data

Results flagged for a closer look

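In 50 groups of 4 libraries, the rounded TPM of members, pore subunits and *Adgrb1*, and the members' shares and ratio to pore subunits, were checked for a library that stands apart from the others, where chance gives about 1 in 20. This marked *Cacng8* in *Bai1*tm2b/tm2b, with its highest library at 3 TPM and the others at 2, and *Cacng5* in *Bai1*tm2b/tm2b, with its lowest library at 12 TPM. It also marked *Gria1* in *Bai1*tm2b/+, with its lowest library at 5 TPM and the others at 6, and *Gria2* in *Bai1*tm2b/+, with its lowest library at 3 TPM and the others at 5. The rate of 1 in 20 is one for continuous values. The steps of whole TPM make the gaps coarse, and a library apart from others of equal value is always marked. *Cacng8*, *Gria1* and *Gria2* were of this kind, so the rate does not hold for them.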

How the results depend on the processing

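Scaling to SGN markers moved all genes alike, with a median over all genes of 0.46 at P22 (5674 of 15443 called higher), 0.35 in the P7 counts, and -3.29 and -3.20 with age, so that signs turned with the scale. At P22 it gave 2 members called in place of 1, with values under that median for *Cacng4* (0.44), *Cacng8* (0.18), *Cacng5* (0.31) and *Cacng7* (0.23). In the P7 counts it turned *Cacng2* (0.34), *Cacng5* (0.0259), *Cacng7* (0.21) and *Gsg1l* (0.14), and in the interaction *Cacng4* (0.0316) and *Cacng7* (0.0236). With age it turned *Cacng2* (-0.0234 and -0.57), *Cacng8* (-1.25 and -2.30), *Cacng5* (-2.11 and -1.82) and *Cacng7* (-1.51 and -1.49) in *Bai1*tm2b/+ and *Bai1*tm2b/tm2b mice. In rounded TPM, 1 member (*Gsg1l*) passed with the adjusted p alone and 1 without TMM, where *Cacng4* (0.0630) and *Cnih2* (0.0886) changed sign. In the interaction *Cnih2* was -0.00225 with DESeq2 and -0.00349 with RLE scaling. With the longest coding transcript as length, the level of *Cacng7* was 68.8, and *Gsg1l* and *Shisa9* changed places at P7. The cause was not tested beyond the change of scale itself.

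The replicate block, of numbers that did not pair the libraries, left 1 member called at P22, with *Cacng4* at 0.00434, and 0 of all genes in rounded TPM. Leaving out each library gave 1 member at P22, 0 in P7 counts, 0 to 1 in rounded TPM, 7 to 8 with age in *Bai1*tm2b/+, 6 to 8 in *Bai1*tm2b/tm2b and 0 in the interaction. Signs changed in these fits for *Cacng4* at P22 (-0.11 to 0.20), *Cacng2* (-0.34 to 0.31) and *Cacng7* (-0.23 to 0.0318) in P7 counts, *Cacng4* (-0.13 to 0.0134) and *Cnih2* (-0.0842 to 0.0101) in rounded TPM, *Cnih2* (-0.10 to 0.16), *Shisa9* (-0.29 to 0.0696), *Cacng4* (-0.16 to 0.16), *Cacng5* (-0.0813 to 0.52) and *Cacng7* (-0.25 to 0.0446) in the interaction, and the sparse *Cacng3* with age in *Bai1*tm2b/+ (-1.63 to 0.47). The calls over all rounded-TPM genes rest on few libraries, with 97 genes called, 0 without replicate 2, 3 or 4 of either genotype, 110 higher and 28 lower without control replicate 1, and 265 and 67 without homozygous replicate 1. TMM factors from all genes, or without the summed level, were chosen after seeing the data and called 70 higher and 20 lower, or 77 and 18. Depth limits *Cacng3* and *Cnih3*, and is unknown for rounded TPM.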
